A study of Mus musculus with 6 samples.

Results

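The cytoplasmic ribosomal protein genes encode the protein part of the ribosome outside mitochondria. They were taken by name: a symbol beginning Rpl or Rps and a digit, or Rplp0, Rplp1, Rplp2 or Rpsa. Of 101 such rows, 5 pseudogene rows with -ps in the name and 10 rows of Rps6k kinases were left out, and 86 of the 23291 genes listed per library remained. These were 46 core genes of the large subunit, 31 core genes of the small subunit and 9 paralogs or other rows that the name rule takes. Liver RNA of C57BL/6 mice, an inbred strain, was sequenced to ask how a thrombin inhibitor alters hepatic gene expression under a fattening diet. Animals of the diet group ate a Western, high fat diet for 3 months. For the dabigatran group the same kind of diet contained dabigatran etexilate, an oral prodrug of a direct thrombin inhibitor, at 10 mg per gram. There was no group on standard chow and none given the drug without the fat, so both groups share the diet. Diet libraries numbered 3 (replicates 0, 1 and 2). The 3 dabigatran files held 2 distinct libraries (replicates 1 and 2), because all 23291 values of replicate 0 repeat those of replicate 1, and the pair was counted once. The word mice in the design text is what marks replicates as separate animals.

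A ribosome consists of a small subunit that decodes the messenger RNA and a large subunit that forms the peptide bond, and most of their proteins are present once in each particle. Cells make the proteins in matched amounts and degrade those that find no ribosomal RNA to bind. Messenger RNAs of these genes typically begin with a cytosine and a run of pyrimidines, the terminal oligopyrimidine (TOP) motif, through which the growth kinase mTORC1 and the RNA-binding protein Larp1 control their translation. Hepatocytes, which secrete most plasma proteins, hold large numbers of ribosomes.

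The start of the genes is shown because it is the sequence feature they are known to share. RefSeq promoter windows (GRCm38.p6, 250 bases before to 50 after an annotated start) matched 65 of the 86 genes by symbol. A run of a C followed by at least 7 more C or T bases, on the sense strand within 50 bases of an annotated start, was present in 53 of these 65 genes (81.5%), against 32.0% of 7417 other tested genes with a window. On the opposite strand the same search found a run in 21.5% of the ribosomal protein genes and 34.8% of the other genes. Each line gives 30 bases of the sense strand, 5′ to 3′, with the pyrimidine run in capitals. A run need not lie at the annotated start itself, and that of Rpl37 begins 28 bases after it. The first 4 are the genes with the lowest unadjusted p in the comparison of the groups among genes with a run, of which Rps27l was lower with dabigatran. In GENCODE M21 the whole run lies in an untranslated exon of the gene for Rps18 and Rps15a, 7 of its 11 bases do for Rpl37, and that of Rps27l lies before the annotated gene.
Rps18 (chr17:33955647-33955676, minus strand): tcacttccgCTCTCTCTTCCacaggaggcc
Rpl37 (chr15:5116632-5116661, plus strand): gcgggggtgCTTTCTCTTCCggtctctttg
Rps27l (chr9:66946064-66946093, plus strand): ctcctctccaCTCCTCCCCgccgcctctat
Rps15a (chr7:118116129-118116158, minus strand): ctttctgccatCTTCCCTCgccggtgagtg

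The next 4 are the genes with a run whose difference between the groups was nearest 0. Their printed runs lie wholly in an untranslated exon for Rpl11, Rps2 and Rpl35a, and 3 of 8 bases do for Rps24, at the first of its annotated starts. The runs of Rpl11 and Rps2 begin 14 and 40 bases after the annotated start. That of Rps2 ends at the edge of the window and may be longer.
Rpl11 (chr4:136053357-136053386, minus strand): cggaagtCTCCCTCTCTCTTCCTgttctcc
Rps2 (chr17:24720083-24720112, plus strand): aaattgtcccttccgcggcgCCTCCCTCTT
Rps24 (chr14:24490665-24490694, plus strand): cgcgctggggtCCTTCCTTgcgcgttgata
Rpl35a (chr16:33056469-33056498, plus strand): ggggcttgCCTTCCTCTTTCCgccatcttg

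Both sets were drawn from genes with a run. Among tested genes with a window, the median log2 difference between dabigatran and diet was 0.26 in the 50 with a run and 0.26 in the 11 without one. Of 3 further motifs searched in the whole window on either strand, CCGGAAG, the core of sites for ETS-type factors, was in 40.0% of the ribosomal protein genes and 20.8% of the other tested genes. AAGATGGC, the core of sites for the factor YY1, was in 9.23% and 5.62%, and TATAAA in 10.8% and 9.36%. A match says that the letters are there, not that a factor binds. The genes themselves are scattered: in GENCODE M21, on the same genome build (GRCm38) as all gene positions, they lie on 19 chromosomes with at most 14 on one, and 85 are annotated as protein coding.

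Values are FPKM, a count of fragments divided by gene length and by the size of the library. A log2 difference is dabigatran minus diet on log2(FPKM + 0.5) with its SE, from limma on the 10247 genes that reached 1 FPKM in 3 or more of the 5 libraries. A gene counts as called when its p, adjusted by the Benjamini-Hochberg method over all 10247 genes, is under 0.05. Of the 86 genes, 81 passed the filter (44 large, 31 small, 6 others). Among these, 67 exceeded 100 FPKM in every library, and the median of their mean levels was 213 FPKM, beside 6.69 FPKM over all tested genes.

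No ribosomal protein gene was called: 0 of 81 passed in either direction with limma, where 0.127% of all tested genes were called higher and 0.303% were called lower with dabigatran. At an unadjusted p under 0.05, 9 of 81 were higher and 1 was lower, against 6.87% and 9.13% of all tested genes. The lowest adjusted p of the set was 0.145. Small differences nevertheless lay mostly on one side. The log2 difference was above 0 for 70 of 81 genes, beside 51.9% of all tested genes, and its median was 0.26 (1.20-fold), beside 0.02 over all tested genes. Both dabigatran libraries exceeded every diet library for 31 of 81 genes and were below every diet library for 2, where each pattern held for 17.2% of all tested genes.

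**Figure D1:**
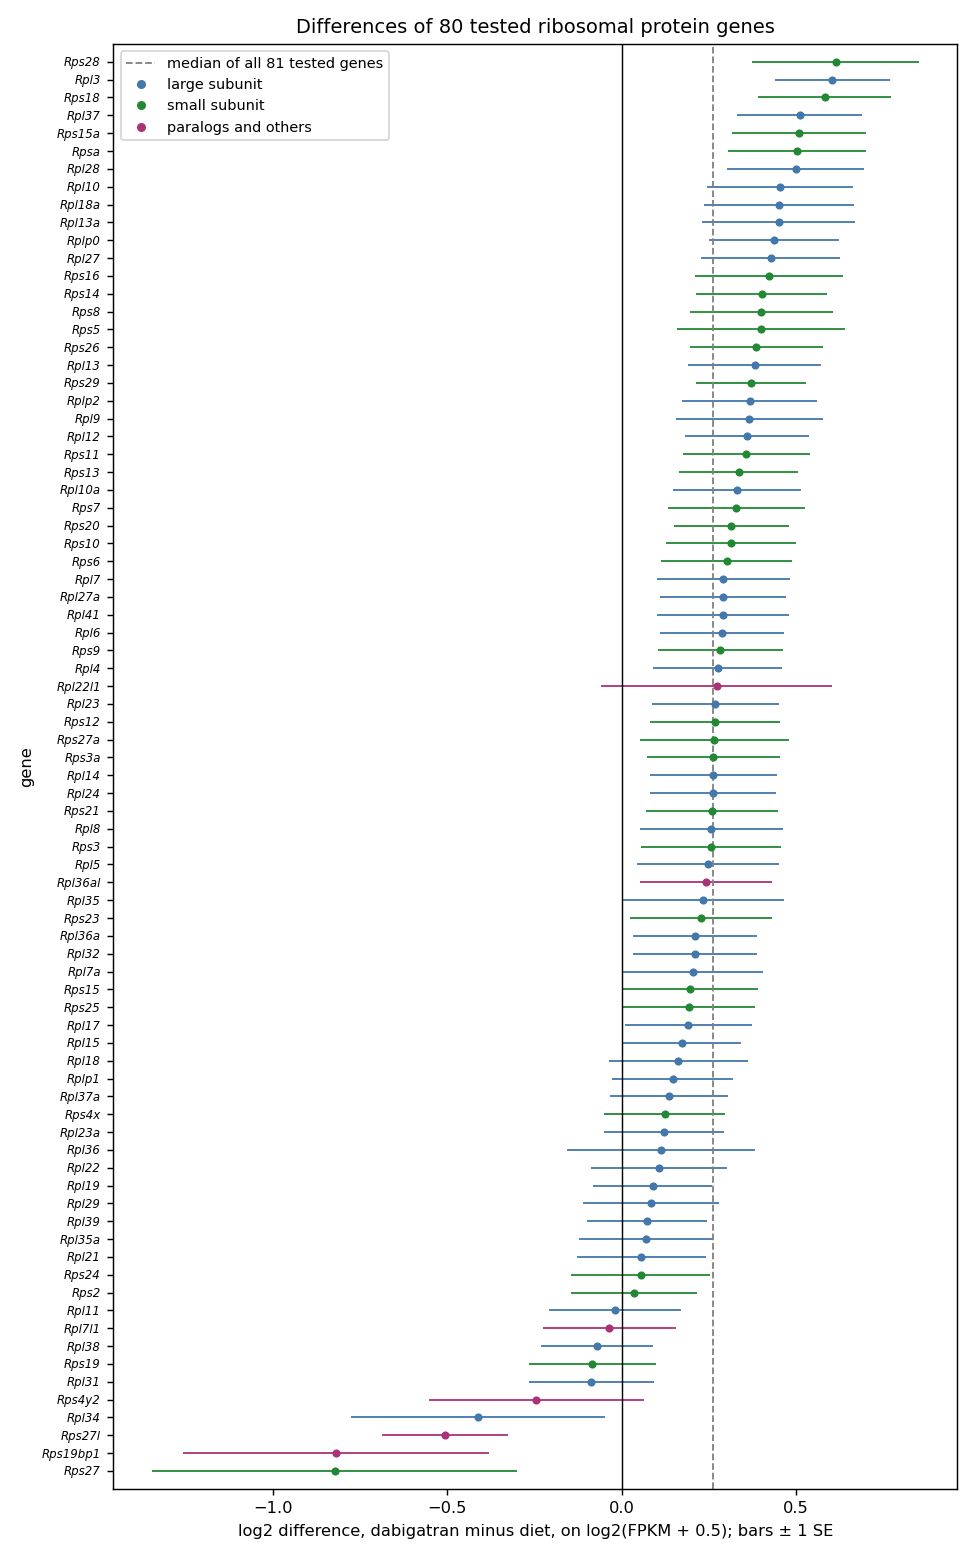
Log2 difference (dabigatran minus diet, on log2(FPKM + 0.5)) of 80 of the 81 tested ribosomal protein genes, each as a point with a bar of 1 SE on either side, coloured by subunit; the dashed line is the median of 0.26 over all 81. Of the 80 points, 70 lie to the right of 0, and the lowest are Rps27, Rps19bp1, Rps27l and Rpl34. The values of Rps27 and Rpl34 cannot be read as the level of their transcript, and Rps19bp1 is no part of the ribosome.

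Libraries of the same group also differed from each other. Ribosomal protein genes held 3.56%, 4.09% and 3.81% of the summed FPKM in diet replicates 0, 1 and 2, a mean of 3.82% ± 0.263 (SD, n = 3). They held 4.16% and 4.36% in dabigatran replicates 1 and 2, a mean of 4.26% ± 0.143 (SD, n = 2). The shares did not overlap between the groups, but dabigatran replicate 1 exceeded diet replicate 1 by far less than the diet libraries differed from each other. The large subunit genes held 2.06% ± 0.134 in the diet group and 2.27% ± 0.0535 in the dabigatran group, and the small subunit genes 1.61% ± 0.119 and 1.85% ± 0.0831, with the same n.

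Each gene's log2 value was also set against its mean in the diet group. The median over the 81 genes was then -0.17, 0.16 and 0.00 in diet replicates 0, 1 and 2, and 0.16 and 0.36 in dabigatran replicates 1 and 2. Over all tested genes these medians lay between 0.00 and 0.04. Diet replicate 1 thus sat level with dabigatran replicate 1, and it was the higher of the pair for 41 of 81 genes. Diet replicate 0 was the lowest library for 65 genes and dabigatran replicate 2 the highest for 60.

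**Figure D2:**
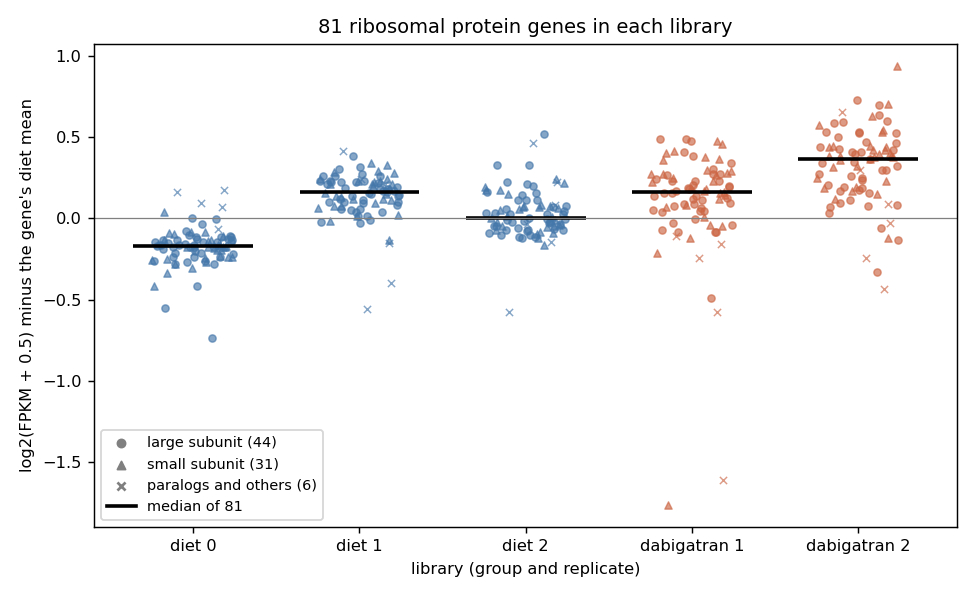
Each point is 1 of the 81 tested ribosomal protein genes in 1 library, as log2(FPKM + 0.5) minus the gene's mean over the 3 diet libraries; black lines are medians over the 81 genes. The medians of diet replicate 1 and dabigatran replicate 1 are both at 0.16, below the 0.36 of dabigatran replicate 2.

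From library to library the genes shifted with less scatter among them than all tested genes. Their median level was 213 FPKM beside 6.69 FPKM over all tested genes, and the scatter at matched levels was not tested. The SD of the log2 differences was 0.260 over the 81 genes and 0.554 over all tested genes. It was 0.161 for elongation and termination factors, 0.253 for ribosome-associated genes and 0.275 for initiation factors, and higher in the other lists described below. In dabigatran replicate 2 the interquartile range of the 81 deviations was 0.18 to 0.44, while that of all tested genes was -0.35 to 0.38. In diet replicate 1 the ranges were 0.08 to 0.23 and -0.19 to 0.19. The medians of the subunits were 0.25 for 44 large subunit genes and 0.30 for 31 small subunit genes, with 40 and 28 differences above 0. Without diet replicate 0 the median over all 81 genes was 0.18. Without dabigatran replicate 2, which leaves 1 dabigatran library, it was 0.16. Omitting diet replicate 0 left 1 gene higher at an unadjusted p under 0.05, in place of 9, beside 4.31% of all tested genes. Omitting diet replicate 2 left 3 (4.84% of all tested genes) and omitting diet replicate 1 gave 24 (8.24%). With all libraries, 31 of the 81 genes lay above every diet library, beside 17.2% of all tested genes. This number was 31 without diet replicate 0 (21.2% of all tested genes), 55 without diet replicate 1 (26.4%) and 37 without diet replicate 2 (22.2%). It was 64 without dabigatran replicate 1 (34.4%) and 32 without dabigatran replicate 2 (27.6%). Genes below every diet library, 2 with all libraries, numbered at most 7 (without dabigatran replicate 2, beside 28.9% of all tested genes).

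Other properties of the libraries also varied, and their part in the result was not tested. The summed FPKM of 9 hepatocyte markers (of 10 listed), none of them at 0, was 28311 to 30991 in the diet libraries and 31486 and 44535 in dabigatran replicates 1 and 2. Single markers differed in direction, and most of the sum was Alb. Apoa1 was at 3443 to 5660 FPKM in the diet libraries and 7630 and 10688 FPKM with dabigatran. Alb was at 18647 to 21821 against 18532 and 27246 FPKM, and Ttr at 1849 to 2945 against 1707 and 1518 FPKM. Fah, Hnf4a, Serpina1a, Cps1 and Tat were, like Apoa1, higher in both dabigatran libraries than in every diet library. Apob overlapped, as did Alb, and Ttr alone was lower. The sum of 6 adipocyte markers was 30.5 to 158 in the diet libraries and 3.57 and 4.75 with dabigatran, Lep and Plin1 being listed at 0 throughout. Nearly all of it was Cfd, at 28.3 to 150 FPKM in the diet libraries and listed at 0 in both dabigatran libraries, while Lipe overlapped between the groups. The sum of 8 proliferation markers was 4.56 to 7.01 in the diet libraries and 2.30 and 0.488 with dabigatran. None of these markers exceeded 2.04 FPKM in any library, and several values were exactly 0. Sinusoidal endothelial markers summed to 134 to 138 in the diet libraries and 130 and 129 with dabigatran, with single markers in both directions. Sums for Kupffer cells and macrophages, stellate cells, cholangiocytes, erythroid cells, neutrophils, B cells, and T and NK cells overlapped between the groups. In bulk tissue, fewer cells of a type and less RNA per cell cannot be told apart. Summed FPKM per library ran from 423726 to 492755, the 10 most abundant genes held 20.7% to 24.5% of it, and depth relative to diet replicate 0 was 0.761 and 0.967 in diet replicates 1 and 2 and 0.857 and 0.772 in dabigatran replicates 1 and 2. A total of 382 other tested genes with a longest transcript under 1000 bases, as 33 of 79 tested ribosomal protein genes with a length also have, had medians of -0.03, -0.03 and 0.10 in the diet libraries and -0.12 and -0.08 in the dabigatran libraries.

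Within the large subunit, Rpl3, a core protein near the catalytic centre, had the lowest p of the whole set. Rpl3 (chr15:80077791-80091868, minus strand) stood at 142, 143 and 140 FPKM in diet replicates 0, 1 and 2 and at 197 and 235 FPKM in dabigatran replicates 1 and 2. The groups did not overlap, the diet libraries lay within a narrow range, and the log2 difference was 0.60 ± 0.17 (SE; limma, adjusted p = 0.145). Its fragments, as the smallest whole numbers that fit the ratios of its values, were 414, 318, 395, 494 and 530 in that order of libraries. Rpl37, a small zinc-binding protein, was at 51.6, 67.0 and 55.9 FPKM in the diet group and 81.2 and 83.9 FPKM with dabigatran, a log2 difference of 0.51 ± 0.18 (adjusted p = 0.229). Rpl28 measured 170, 217 and 191 FPKM against 236 and 311 FPKM (0.50 ± 0.20, adjusted p = 0.273). In all 3 genes both dabigatran libraries were above every diet library.

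Rpl10, a late-joining protein whose loading completes the large subunit, was among the most abundant at 358, 525 and 400 FPKM in the diet group and 550 and 608 FPKM with dabigatran. Its log2 difference was 0.45 ± 0.21 (adjusted p = 0.338), and diet replicate 1 lay close under dabigatran replicate 1.

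The stalk proteins recruit translation factors to the large subunit. Rplp0, which anchors the stalk, was at 191, 233 and 197 FPKM in the diet libraries and 249 and 312 FPKM with dabigatran (0.44 ± 0.19, adjusted p = 0.306). Rplp2 was at 162, 179 and 212 FPKM against 211 and 265 FPKM, with overlap (0.37 ± 0.19). Its partner Rplp1, at 339, 396 and 411 FPKM against 414 and 429 FPKM, had a log2 difference of 0.15 ± 0.17. The groups did not overlap for Rplp0 and Rplp1.

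Rpl5 and Rpl11 join the ribosome together with 5S ribosomal RNA and, when free, bind the p53 inhibitor Mdm2. Rpl5 was at 112, 156 and 123 FPKM in the diet libraries and 137 and 172 FPKM with dabigatran (log2 difference 0.25 ± 0.20). Rpl11 stood at 379, 507 and 418 FPKM against 411 and 441 FPKM (-0.02 ± 0.19), and its highest value was in the diet group. Rpl13a, which also takes part in translational silencing outside the ribosome, was at 120, 189 and 133 FPKM against 203 and 193 FPKM (0.45 ± 0.22, adjusted p = 0.363). The sign for Rpl11 turned positive under quantile normalization (0.01), without diet replicate 1 (0.10) and without dabigatran replicate 1 (0.03).

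Rpl38, also abundant, was nearly level. It was at 466, 480 and 459 FPKM in the diet group and 442 and 450 FPKM with dabigatran, so both dabigatran libraries lay below every diet library, at a log2 difference of only -0.07 ± 0.16. Rpl41, the most abundant large subunit gene, which encodes a very short basic peptide, was at 408, 444 and 505 FPKM against 496 and 611 FPKM (0.29 ± 0.19), with overlap.

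Within the small subunit, Rps18, a protein of the subunit head, was the most abundant gene of the set. Rps18 (chr17:33951999-33956001, minus strand) stood at 409, 528 and 460 FPKM in the diet libraries and 637 and 754 FPKM with dabigatran. Both dabigatran libraries were above every diet library, and the log2 difference was 0.58 ± 0.19 (limma, adjusted p = 0.208). Rps28, a small protein near the messenger RNA exit, had the largest log2 difference, 0.61 ± 0.24 (adjusted p = 0.267). It was at 183, 218 and 251 FPKM in the diet group and 263 and 413 FPKM with dabigatran, so dabigatran replicate 2 alone stood well apart.

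Rps29, a zinc-binding protein, was at 247, 239 and 238 FPKM against 309 and 315 FPKM, 2 tight groups with a log2 difference of 0.37 ± 0.16 (adjusted p = 0.304). Rpsa, also known as the laminin receptor, was at 102, 141 and 129 FPKM against 160 and 190 FPKM (0.50 ± 0.20, adjusted p = 0.272). Rps14, a protein of the platform where the subunits meet, was at 285, 355 and 344 FPKM against 393 and 472 FPKM (0.40 ± 0.19, adjusted p = 0.344). The groups did not overlap for these 3 genes.

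Rps6, the main ribosomal substrate of the S6 kinases, was at 186, 240 and 194 FPKM in the diet libraries and 233 and 275 FPKM with dabigatran (0.30 ± 0.19), with diet replicate 1 above dabigatran replicate 1. Rps27a, made as a fusion with ubiquitin, was at 218, 326 and 242 FPKM against 290 and 332 FPKM (0.27 ± 0.21). Rps19, the gene most often mutated in Diamond-Blackfan anaemia, was at 156, 153 and 199 FPKM against 162 and 155 FPKM (-0.08 ± 0.18), and without diet replicate 2 its difference was 0.03. In each of these genes the groups overlapped.

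Rps2, another abundant small subunit gene, was nearly level. It was at 426, 457 and 475 FPKM in the diet libraries and 415 and 517 FPKM with dabigatran (0.03 ± 0.18). Its lowest and its highest library were the 2 dabigatran libraries. The sign for Rps2 turned negative without diet replicate 0 (-0.01) and without dabigatran replicate 2 (-0.12).

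Of the 6 tested paralogs and other rows, Rpl36al and Rpl22l1 had differences near the core median and the other 4 had differences below 0. Rps27l, a paralog of Rps27 that p53 induces, was the gene with a lower level and an unadjusted p under 0.05. Rps27l (chr9:66946086-66949516, plus strand) stood at 297, 359 and 281 FPKM in the diet libraries and 208 and 229 FPKM with dabigatran. Both dabigatran libraries lay below every diet library, and the log2 difference was -0.51 ± 0.18 (limma, adjusted p = 0.236). Its fragments were 191, 176 and 175 in the diet libraries and 115 and 114 with dabigatran. Rps27l and Rpl38 were the 2 of the 81 tested genes with both dabigatran libraries below every diet library.

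Rps19bp1, a nucleolar protein that binds Rps19 and is no part of the ribosome, was low, at 11.4, 7.52 and 11.8 FPKM in the diet libraries and 2.97 and 9.88 FPKM with dabigatran (-0.82 ± 0.44, adjusted p = 0.406). Dabigatran replicate 1 alone was low, on 4 fragments. Rps4y2, a copy of Rps4x that GENCODE M21 lists as Rps4l and as a transcribed processed pseudogene, was at 8.09, 4.96 and 10.6 FPKM against 6.29 and 6.28 FPKM (-0.25 ± 0.31). Its parent Rps4x was at 240, 295 and 282 FPKM against 287 and 304 FPKM (0.12 ± 0.17).

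Rpl36al, a paralog of Rpl36a, was at 211, 288 and 238 FPKM in the diet libraries and 277 and 299 FPKM with dabigatran (0.24 ± 0.19). Its difference was close to that of Rpl36a itself, at 175, 212 and 191 FPKM against 244 and 203 FPKM (0.21 ± 0.18). Rpl22l1 was at 66.5, 79.5 and 39.7 FPKM against 55.1 and 93.7 FPKM (0.27 ± 0.33) and was higher than Rpl22 in 4 of the 5 libraries, Rpl22 being at 43.5, 54.3 and 47.5 FPKM against 45.5 and 59.4 FPKM (0.11 ± 0.19). Without dabigatran replicate 2 both turned negative, to -0.11 and -0.08, as did Rpl22l1 without diet replicate 2 (-0.02). Rpl7l1, a factor of large subunit assembly, was at 18.8, 15.99 and 18.9 FPKM against 15.9 and 19.0 FPKM (-0.04 ± 0.19). It was far below Rpl7 at 260, 350 and 275 FPKM against 346 and 370 FPKM (0.29 ± 0.19). The sign for Rpl7l1 was positive without diet replicate 2 (0.00) and without dabigatran replicate 1 (0.09). Groups overlapped for all of these genes. Rpl3l, Rpl10l and Rpl39l, known from muscle or testis, were listed at 0 in all 5 libraries, beside Rpl39 at 407, 464 and 385 FPKM against 437 and 441 FPKM (0.07 ± 0.17).

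A few core genes had values that cannot be read as the level of their transcript. Rpl26 was listed at 0 in all 5 libraries. Rpl30 was listed at 0 in the 3 diet libraries and at 20.3 and 4.47 FPKM in dabigatran replicates 1 and 2. Rpl34 was at 3.81, 7.85 and 9.80 FPKM against 4.604 and 5.21 FPKM, and Rps27 at 1.80, 2.195 and 1.87 FPKM against 0.223 and 2.155 FPKM. An exact 0 for a protein that every ribosome carries can be a failed estimate, and no fold is given for Rpl26 or Rpl30.

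For each of these 4 genes another row held far higher values, and its transcript shares many 50-base windows with the gene. Gm15772 (chr5:3236431-3236868, plus strand), a processed pseudogene with 289 windows in common with Rpl26, was at 396, 473 and 400 FPKM in the diet libraries and 445 and 525 FPKM with dabigatran. Gm12191 (chr11:49678710-49679057, minus strand), a processed pseudogene with 249 windows in common with Rpl30, was at 337, 387 and 312 FPKM against 346 and 400 FPKM. Rpl34-ps1 (chr6:71124610-71124963, plus strand; 218 windows in common with Rpl34) was at 255, 307 and 287 FPKM against 363 and 367 FPKM.

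Gm9846, which GENCODE M21 names Rps27rt and lists as a single-exon protein-coding gene (chr9:114982366-114982739, minus strand), has 296 windows in common with Rps27. It was at 535, 593 and 589 FPKM in the diet libraries and 659 and 700 FPKM with dabigatran. Reads of the gene and its copy cannot be told apart in such windows, and how reads with several matches were assigned is not given in the sources used here. With gene and copy added together, the log2 differences were 0.20 ± 0.18 for Rpl26, 0.16 ± 0.18 for Rpl30, 0.36 ± 0.17 for Rpl34 and 0.25 ± 0.17 for Rps27 (limma, adjusted p of 0.630, 0.695, 0.357 and 0.516). The differences of the single rows of Rpl34 and Rps27 were -0.41 ± 0.36 and -0.82 ± 0.52, so the sum changed both signs. That of Rps27 was also positive without dabigatran replicate 1 (0.12).

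**Figure D3:**
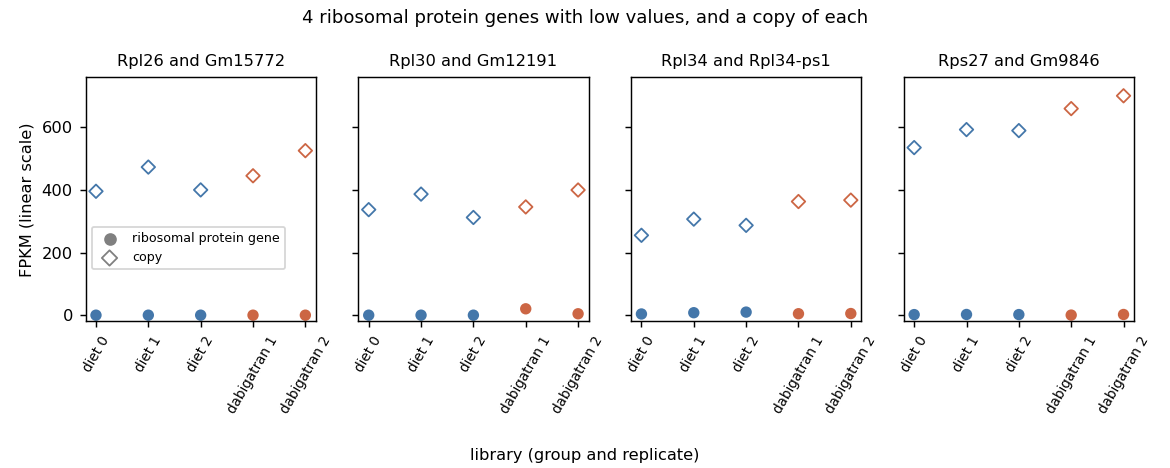
FPKM (linear axis) of Rpl26, Rpl30, Rpl34 and Rps27 (filled circles) and of a copy of each that shares sequence with it (open diamonds) in the 3 diet libraries (blue) and 2 dabigatran libraries (orange). The genes lie near 0 and the copies between 255 and 700 FPKM in every library.

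Such sharing is widespread among these genes. The median ribosomal protein gene had 19.7% of its 50-base transcript windows in common with another annotated gene, with 81.1% for Rpl36, and 6 genes shared over 50% of their windows. For 37 of 86 genes at least 1 of those other genes had a row of its own in the files. Rps15a, at 12.3, 15.8 and 13.7 FPKM in the diet libraries and 19.4 and 20.4 FPKM with dabigatran (0.51 ± 0.19, adjusted p = 0.257), was the fifth core gene with a mean under 20 FPKM. Its closest copy with a row, Rps15a-ps6, reached at most 0.749 FPKM. Rps15a shares windows with 15 genes that have a row, and only the closest was read. Its fragments were 154, 150 and 165 in the diet libraries and 208 and 197 with dabigatran, and its longest annotated transcript has 5179 bases. Whether the length used for FPKM accounts for its low values was not tested.

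The precision of single genes was limited by counting as well as by the number of libraries. For 73 of the 81 tested genes the FPKM values of the 5 libraries were multiples of a common step and gave whole fragment numbers, the smallest that fit. Their median was 189 in the library with the fewest fragments of a gene and 250 in that with the most, where counting error alone is 7.27% and 6.32%. The percentages cover counting error only, and the real counts may be whole multiples of these.

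Other genes of the translation machinery were read from lists. For comparison with each list, 0.127% of all tested genes were called higher and 0.303% lower. Of all tested genes 51.9% had a difference above 0, and their median was 0.02. At such shares 0 called in a short list says little about its genes. Of 10 tested elongation and termination factors, 0 were called and 10 had a difference above 0, with a median of 0.27. Eef2, which moves the ribosome along the messenger RNA, was at 300.2, 314 and 335 FPKM in the diet libraries and 352 and 450 FPKM with dabigatran (0.33 ± 0.18, adjusted p = 0.412). Eef1e1, a scaffold protein of aminoacyl-tRNA synthetases, had the lowest p of this list, with 3.80, 4.997 and 4.92 FPKM against 5.55 and 9.23 FPKM (0.61 ± 0.28, adjusted p = 0.332).

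Of 38 initiation factors, 0 were called and 29 had a difference above 0, with a median of 0.19. Eif2b2, a subunit of the exchange factor that recharges eIF2 with GTP, was at 5.50, 6.46 and 6.28 FPKM against 9.78 and 12.7 FPKM (0.83 ± 0.22, adjusted p = 0.132). Eif3g, a subunit of the factor that binds the small subunit, was at 25.7, 32.0 and 31.8 FPKM against 42.3 and 51.2 FPKM (0.64 ± 0.19, adjusted p = 0.170). In both genes the dabigatran libraries were above every diet library.

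Of 62 ribosome biogenesis genes, 0 were called and 55 had a difference above 0, with a median of 0.37, the highest of these lists. Nop56, a core protein of the particles that methylate ribosomal RNA, was at 6.78, 4.61 and 5.08 FPKM in the diet libraries and 9.55 and 17.6 FPKM with dabigatran (1.19 ± 0.30, adjusted p = 0.120). Ddx21, a nucleolar RNA helicase, was at 5.57, 7.54 and 5.67 FPKM against 9.94 and 15.3 FPKM (0.94 ± 0.26, adjusted p = 0.145). The library medians of this list were -0.03, 0.06 and -0.01 in the diet libraries, 0.07 in dabigatran replicate 1 and 0.53 in dabigatran replicate 2, so the last library stood apart. Without dabigatran replicate 1, which leaves 1 dabigatran library, the log2 difference of Nop56 was 1.61.

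Of 16 ribosome-associated genes, 0 were called and 11 had a difference above 0, with a median of 0.22. Sec61a1, the channel through which ribosomes pass secretory proteins into the endoplasmic reticulum, was at 22.2, 27.5 and 25.2 FPKM in the diet libraries and 34.6 and 45.1 FPKM with dabigatran (0.66 ± 0.20, adjusted p = 0.173). Fau, which encodes the small subunit protein eS30 and which the name rule misses, was at 229, 269 and 274 FPKM against 299 and 326 FPKM (0.28 ± 0.17). Gnb2l1, the gene of the small subunit scaffold Rack1, was at 122, 191 and 146 FPKM against 184 and 192 FPKM (0.32 ± 0.21). Both dabigatran libraries exceeded every diet library for Sec61a1 and Fau. The library medians of elongation, initiation and ribosome-associated genes followed the order seen for the ribosomal protein genes, diet replicate 1 being the highest of the diet group in each.

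**Figure D4:**
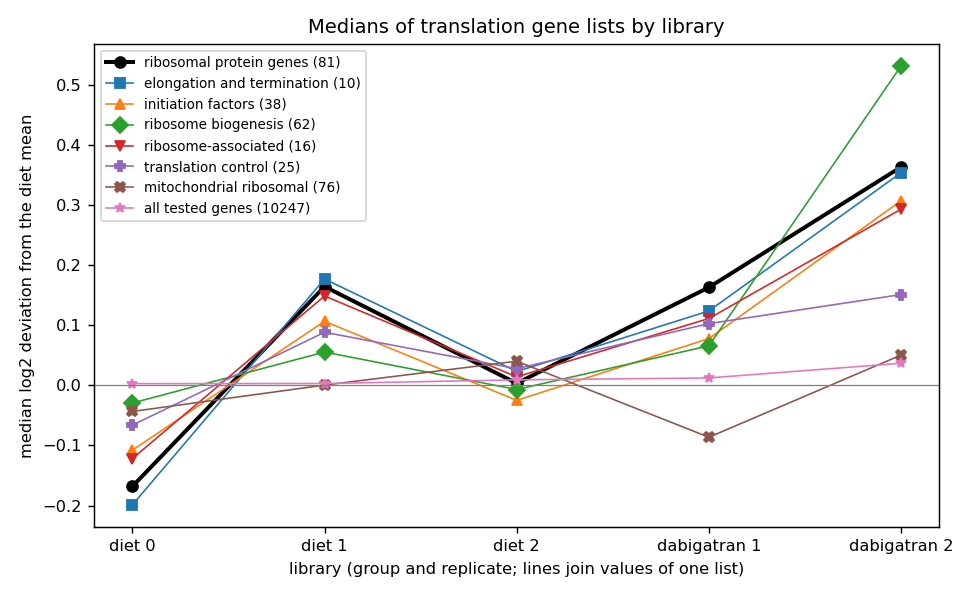
Median over the tested genes of each list of log2(FPKM + 0.5) minus the gene's diet mean, by library; the number of genes stands in the legend. Ribosomal protein genes run from -0.17 in diet replicate 0 to 0.36 in dabigatran replicate 2, while the mitochondrial ribosomal protein genes stay between -0.09 and 0.05.

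The 76 mitochondrial ribosomal protein genes, which build the separate ribosome of mitochondria, had a median of -0.01 with 37 differences above 0 and 0 called. The lowest p was that of Mrps18c, at 39.2, 46.1 and 41.9 FPKM in the diet libraries and 22.0 and 15.7 FPKM with dabigatran (-1.16 ± 0.20, adjusted p = 0.0674). It was called without diet replicate 1 (adjusted p = 0.0472). Without dabigatran replicate 1, which leaves 1 dabigatran library, its log2 difference was -1.40.

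Among 25 regulators of translation, 1 was called higher and 0 were called lower, beside 0.127% and 0.303% of all tested genes. The median was 0.06, beside 0.02 over all tested genes. The called gene was Eif4ebp3, a relative of the mTORC1 substrates that block the cap-binding factor eIF4E. Eif4ebp3 was at 16.8, 22.0 and 12.1 FPKM in the diet libraries and 163 and 738 FPKM with dabigatran (4.35 ± 0.55, adjusted p = 0.0404). Its direction held throughout, but the adjusted p rose to 0.204 when diet replicate 0 was left out and to 0.223 without diet replicate 2. The adjusted p was 0.0801 with no filter on low values and 0.0981 with no variance trend. Without dabigatran replicate 2, which leaves 1 dabigatran library, its log2 difference was 3.27. Ddit4, an inhibitor of mTORC1 signalling, was listed at 0 in diet replicate 0 and at 0.702 and 1.11 FPKM in diet replicates 1 and 2. With dabigatran it was at 3.43 and 14.9 FPKM (2.98 ± 0.66, adjusted p = 0.0906). Without dabigatran replicate 1, which leaves 1 dabigatran library, its log2 difference was 3.96. Larp1, the binder of TOP sequences, was at 17.5, 19.0 and 18.7 FPKM against 27.4 and 29.001 FPKM (0.60 ± 0.17, adjusted p = 0.156). Atf4, the transcription factor induced by amino acid shortage and unfolded proteins, was at 22.6, 33.8 and 31.2 FPKM against 49.8 and 45.1 FPKM (0.71 ± 0.21, adjusted p = 0.175). For these 4 genes both dabigatran libraries were above every diet library.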

How the data were processed

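Expression was measured by RNA sequencing of snap frozen mouse liver with TruSeq libraries of total RNA, per the labels' protocols. The unit is FPKM per the file headers, 1 deposited value per gene symbol and library. CASAVA, TopHat2 2.0.4, Cuffdiff, R 2.15.1 and the builds mm10 and GRCm38 are named, without role or order, in the submitters' processing notes. The sources used here do not give the annotation, the use of strand, the treatment of reads with several matches or how libraries were scaled to each other, and the last 2 can shift genes with copies or a whole library.

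Values were log2(FPKM + 0.5), which understates differences of low genes. Genes that reached 1 FPKM in 3 or more of 5 distinct libraries (3 diet, 2 dabigatran) were tested with limma 3.58.1 in R 4.3.3 (lmFit, eBayes with a variance trend, group as the sole term, two-sided, Benjamini-Hochberg adjustment over 10247 genes, threshold 0.05), after the steps had been tested on simulated data. Values given after ± are SE on the log2 scale and SD on other scales. An adjusted p in parentheses comes from this fit. In the simulated data the share of false calls among the called genes lay above the threshold of 0.05.

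The genes and lists were chosen with earlier results of these data known. By rule, the text names the 12 lowest p, the 6 highest and 4 lowest tested means, genes at 0 in some library and above 1 FPKM elsewhere, paralogs with their parents, Rpsa, Rplp0, Rplp1, Rplp2, Rps6, Rpl5, Rpl11, Rps19, Rps27a and Rpl13a, and up to 4 genes of each list by p. 1 gene that the rule names is not reported here. Chosen after values were seen were which of those list genes to describe, the sequences printed, the pyrimidine run and its window, the 3 motifs, the 50-base windows, the limit of 1000 bases for short genes and the 4 copies. Whole fragments were sought among smallest solutions of at most 1000 fragments within a relative tolerance of 2e-05, a limit set after a looser one also fitted shifted values. They were found for 77.5% of tested genes, 90.1% of tested ribosomal protein genes and 0.1% of 1000 genes with randomly shifted values. Transcript windows and positions come from GENCODE M21, with names matched through RefSeq synonyms for all 86 genes. Alternatives changed the pseudocount, the filter, the scaling, the variance trend, a replicate block and the libraries used. Dabigatran replicate 0 was not analysed here, since its file repeats replicate 1.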

Additional observations from a re-analysis of the deposited data

How the results depend on the processing

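With limma, 0 ribosomal protein genes were called in either direction in the main fit and in each alternative that kept both dabigatran libraries. The lowest adjusted p of these genes ran from 0.0701 to 0.408. In the main fit, 0.127% of all tested genes were called higher and 0.303% lower. Without a filter, without the variance trend and without diet replicate 2, 0 of all tested genes were called. Those 3 settings therefore could not call a ribosomal protein gene. The median of 0.26 kept its sign under every other alternative run (0.16 to 0.36). In an alternative chosen after seeing the data, each library was scaled to its median ribosomal protein gene. By construction this brought the medians to -0.0100 over all, -0.0206 for the large subunit and 0.0283 for the small subunit. It moved the median of all tested genes to -0.23 and gave 29 genes called higher and 133 lower. Adding the 4 copies, also chosen afterwards, left the median at 0.26.

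Counts over all tested genes, 13 called higher and 31 lower in the main fit, moved with most settings. Genes called higher numbered 6 with a pseudocount of 0.1, 0 without a filter, 8 with a minimum of 5 FPKM, 0 without the variance trend and 0 to 95 leaving out 1 library. Genes called lower numbered 17 with a pseudocount of 0.1, 0 without a filter, 16 under quantile normalization, 0 without the variance trend and 0 to 199 leaving out 1 library. The cause was not tested.

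Labels of both groups share replicate numbers. Deviations of same-numbered libraries correlated at -0.04 for number 1 and -0.03 for number 2. Deviations of the 2 dabigatran libraries mirror each other, so the correlations are not independent. They cannot show whether same-numbered libraries were paired. With a replicate block, 5 genes were called higher and 8 lower over all tested genes, 0 ribosomal protein genes were called and their median was 0.18. Among the libraries used, number 0 occurs only in the diet group, so diet replicate 0 adds nothing to the group difference of this fit. Its median is the same as that without diet replicate 0.

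Named ribosomal protein genes changed sign, uncalled throughout, in 26 of 539 fits. Those fits include the scaling to the median ribosomal protein gene, which turns signs by construction. It left 36 of the tested ribosomal protein genes above 0 and 45 below, beside 70 and 11 in the main fit. The 2 dabigatran libraries limit every statement.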
